A study of Mus musculus with 14 samples.

Results

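The genes described here are 10 regulators of the step from G1 into S phase: the D-type cyclins Ccnd1, Ccnd2 and Ccnd3, the E-type cyclins Ccne1 and Ccne2, the CDK inhibitors Cdkn1a (p21) and Cdkn1b (p27), the transcription factors E2f1 and E2f8, and Myc. They were chosen by name from the 55414 gene rows of the count table, with earlier results of these data known, and 9 of the 10 were among the 12851 genes with enough counts to be tested. Expression was measured in primary bone marrow-derived macrophages (pBMDMs) of wildtype C57BL/6N mice, grown with M-CSF and kept for 24 h in filtered supernatant of Pfa1 MEFs, a mouse embryonic fibroblast line in which 4-hydroxytamoxifen (4OHT) deletes GPX4 and thereby sets off ferroptosis. Supernatants came from untreated live Pfa1 MEFs (ctrl), from MEFs given 4OHT (4OHT, the ferroptotic supernatant), from MEFs given 4OHT and the ferroptosis inhibitor Ferrostatin-1 (4OHT+Fer1), and from MEFs given Ferrostatin-1 alone (Fer1), with 3 replicates each. Medium without contact to MEFs (medium) was given to pBMDMs in 2 replicates, so there were 14 samples in 5 groups. The supernatants still held the agents given to the MEFs, and all of them came from 1 MEF line.

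Cells commit to division in G1. D-type cyclins are made in response to growth factors such as M-CSF, activate CDK4 and CDK6, and start the phosphorylation of the retinoblastoma protein, which holds E2F factors in check. Free activating E2F proteins such as E2F1 then turn on the E-type cyclins, which activate CDK2, and the genes of DNA synthesis. E2F8 is itself made from an E2F target gene and represses the same set of genes later in the cycle. p21 and p27 inhibit cyclin-CDK complexes, p21 being a classic p53 target, and MYC drives growth and ribosome production. Bone marrow-derived macrophages cultured with M-CSF can still divide.

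Libraries were read from the 3′ end of transcripts, so levels are given as CPM, counts scaled by library size and TMM factors. Libraries held from 7823051 to 11052352 counts. The limit of 3 counts, the amount below which a gene was not told from absent, corresponded to between 0.272 and 0.381 CPM. Macrophage markers (10 genes, among them Adgre1, Csf1r and Lyz2) summed to between 19698 and 44725 CPM. In ctrl the sum was between 19698 and 28519, in 4OHT between 28739 and 44725 and in medium between 28039 and 34950. It was carried by Lyz2, which alone had between 13967 and 36193 CPM. Of the other marker lists, 6 lymphocyte genes summed to at most 0.531 CPM and 7 dendritic cell genes to at most 3.56 CPM, and the 12 fibroblast genes, led by Col1a2 and Col1a1, to between 16.8 and 129 CPM with overlapping ranges in all groups. In these bulk samples a smaller number of cycling cells and less of a transcript per cell cannot be told apart. A gene was called when edgeR's quasi-likelihood test, with the replicate number as a block, gave an adjusted p under 0.05 at a log2 fold change beyond 1 in either direction.

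Replicate 3 stood apart for the D-type cyclins Ccnd1 and Ccnd2 but not for Ccnd3, and results are therefore given with and without it. This choice came from the members' own values, and adjusted p-values without replicate 3 are conditional on it. Averaged over the 4 supernatant groups, log2 CPM of Ccnd2 was 7.24, 7.30 and 5.40 in replicates 1, 2 and 3, and that of Ccnd1 was 6.76, 7.59 and 5.87. The deviation of replicate 3 from the mean of the other replicates was -1.87 for Ccnd2 and -1.30 for Ccnd1 on the log2 scale, against a median absolute deviation of 0.24 over all tested genes, and 0.98% and 3.84% of tested genes deviated more. Summed neutrophil markers, which were carried by S100a8 and S100a9 while Ly6g and Elane were at 0 in every sample, were also lowest in replicate 3, between 2.87 and 5.02 CPM against 9.10 to 39.1 CPM in replicate 1 and 17.4 to 56.6 CPM in replicate 2. The part of these markers in the cyclin levels was not tested. There was no replicate 3 of fresh medium.

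**Figure D1:**
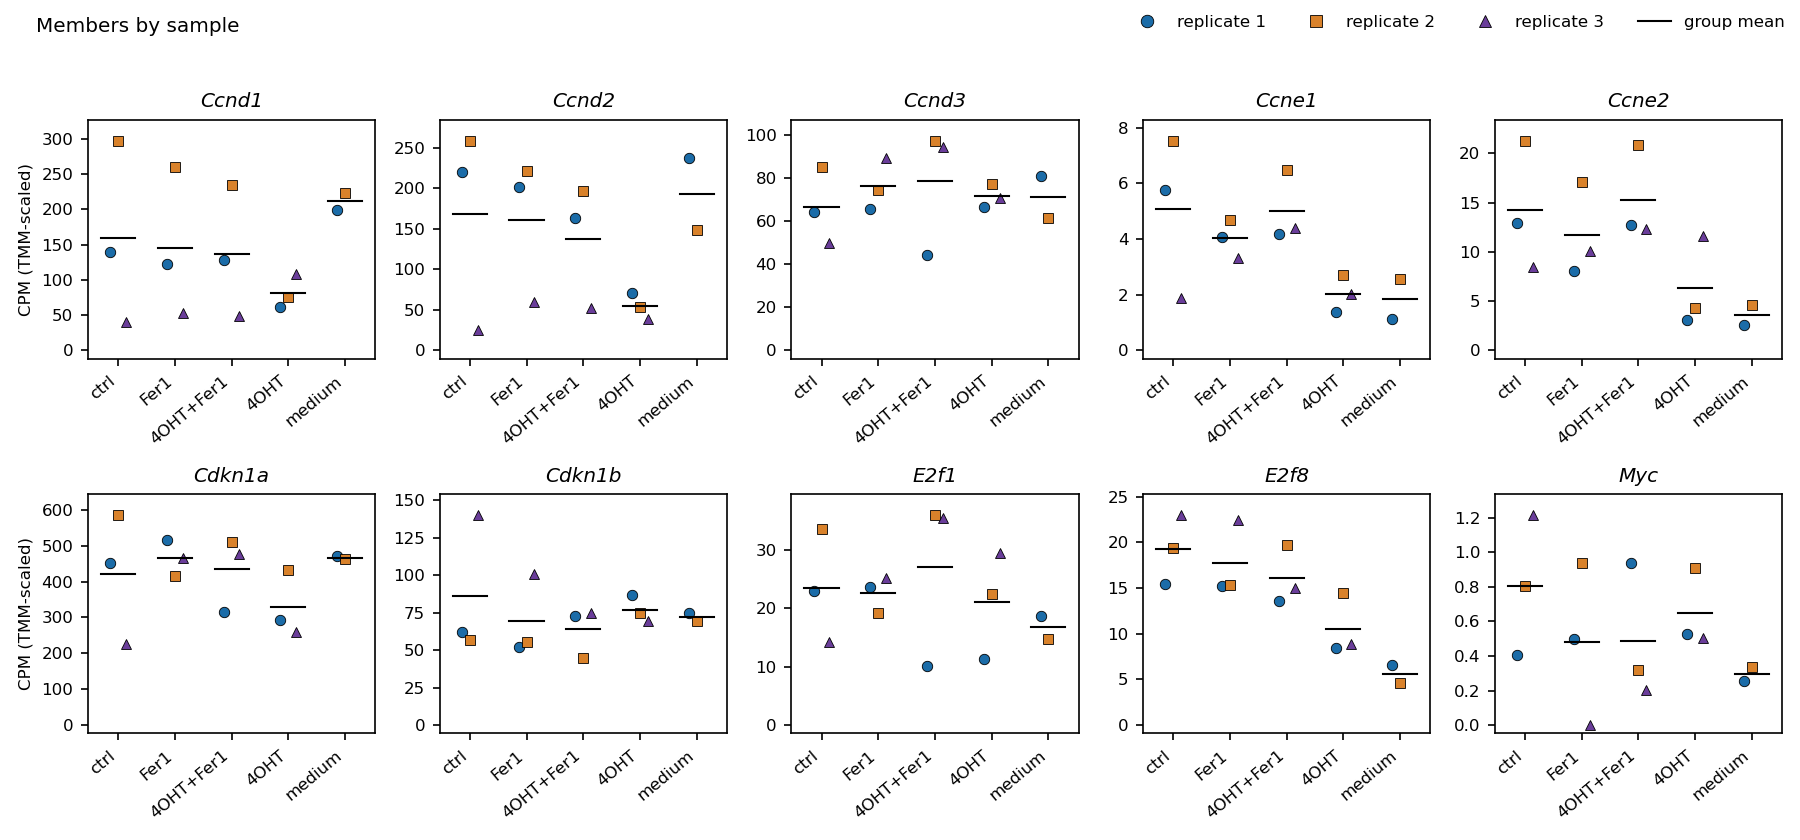
Levels of the 10 genes in each of the 14 samples, as TMM-scaled CPM on linear axes that differ between panels, with 1 symbol per replicate number and a bar at the group mean. Ccnd1 and Ccnd2 of replicate 3 lie below the other replicates in ctrl, Fer1 and 4OHT+Fer1, and E2f8 and Ccne2 are lowest in medium.

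E2f8 (ENSMUSG00000046179, GRCm38 chr7:48866429-48881596, minus strand) was lowest in fresh medium, next lowest in ferroptotic supernatant and highest in ctrl by group mean. Its levels were 15.4, 19.4 and 23.0 CPM in ctrl, 15.3, 15.3 and 22.5 CPM in Fer1, 13.6, 19.8 and 15.1 CPM in 4OHT+Fer1, 8.43, 14.4 and 8.86 CPM in 4OHT, and 6.60 and 4.56 CPM in medium. Both medium samples and all 3 ferroptotic samples lay below every ctrl sample, and the medium samples also lay below every 4OHT sample. In fresh medium E2f8 was called lower than in ctrl (log2 fold change -1.71 ± 0.32 SE, edgeR adjusted p = 0.00467). For 4OHT against ctrl the value was -0.86 (95% confidence interval -1.42 to -0.29, adjusted p = 0.17), and against 4OHT+Fer1 it was -0.61 (adjusted p = 0.376). E2f8 was lower in 4OHT than in ctrl within each replicate number, by log2 differences of -0.85, -0.42 and -1.35, so replicate 3 moved with the others here.

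Ccne1 and Ccne2, the E-type cyclins, were both called lower in fresh medium than in ctrl. Ccne1 (ENSMUSG00000002068, chr7:38097984-38107534, minus strand) had 5.77, 7.54 and 1.88 CPM in ctrl and 1.14 and 2.56 CPM in medium, and ranges of these groups overlapped through replicate 3 of ctrl. The fitted log2 fold change was -1.60 ± 0.44 (SE, adjusted p = 0.0373). Ccne2 (ENSMUSG00000028212, chr4:11191351-11204779, plus strand) had 13.0, 21.3 and 8.50 CPM in ctrl and 2.54 and 4.56 CPM in medium, without overlap, with a fitted log2 fold change of -2.01 ± 0.53 (SE, adjusted p = 0.029). Without the replicate block neither was called, at -1.44 for Ccne1 (adjusted p = 0.195) and -1.996 for Ccne2 (adjusted p = 0.0836), while E2f8 was still called. Leaving out replicate 1 or replicate 2, which leaves 1 medium sample that is assumed to vary like the other groups, ended all of these calls, with values of -1.15 and -1.86 for Ccne1, -1.86 and -1.96 for Ccne2 and -2.25 and -1.35 for E2f8. Over the whole table far fewer genes were called in these fits too. None of the member calls ended without replicate 3.

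With E2f8, Ccne1 and Ccne2, 3 of the 9 tested members were called lower in medium than in ctrl and none higher, where 4.10% of all tested genes were called lower and 3.69% higher. The same 3 had an unadjusted p under 0.05, against 24.0% of all genes. The D-type cyclins were not called: log2 fold changes were 0.35 for Ccnd1 (95% confidence interval -0.83 to 1.53), 0.012 for Ccnd2 (-0.91 to 0.93) and 0.16 for Ccnd3 (-0.49 to 0.80). Medium also differed from the supernatants in neutrophil markers (39.1 and 56.6 CPM against at most 28.2 CPM) and in dendritic cell markers (2.11 and 3.56 CPM against at most 1.59 CPM). The 4 haematopoietic progenitor genes, carried by Cd34 with Gata1 at 0 in every sample, summed to 15.1 and 30.04 CPM in medium, 3.86 to 19.2 CPM in ctrl and 4.43 to 10.9 CPM in 4OHT. For all of these markers the part in the result was not tested.

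Promoter windows of RefSeq (GRCm38.p6, 250 bases before to 50 after a start) were at hand for 6 of the 10 members, in 8 windows. None was at hand for Ccne2, which was also called lower in medium. The sequences of E2f8 and Ccne1 are shown because these genes were called lower together. Each run is the 100 bases upstream of the annotated starts, read 5′ to 3′ on the gene's strand, for E2f8 at chr7:48881597-48881696 and for Ccne1 at chr7:38107535-38107634, and capitals mark a CHR element.
E2f8: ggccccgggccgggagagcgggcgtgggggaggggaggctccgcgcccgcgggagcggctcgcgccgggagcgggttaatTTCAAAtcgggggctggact
Ccne1: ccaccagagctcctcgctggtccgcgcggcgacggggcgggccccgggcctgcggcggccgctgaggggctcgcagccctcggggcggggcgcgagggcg
The CHR element, searched as TTTGAA on both strands, the letters bound by the MuvB core of the DREAM complex in cell cycle promoters, was found 20 bases before the E2f8 start and in 1 of the 8 member windows, and in 17.9% of all 32851 windows. The E2F letters TTTCCCGC, TTTCGCGC, TTTGCCGC or TTTGGCGC on either strand were in none of the 8 windows, in 2.26% of all windows and in 13 of the 33 windows of the E2F target list described later. Among windows of tested genes the shares were 12.4% for the CHR element and 4.02% for the E2F letters. The 33 windows cover 26 genes of the E2F target list, and 15.2% of them held the CHR element. These are matches of letters only.

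The comparison of ferroptotic with live supernatant called none of the 9 tested members, where 0.763% of all tested genes were called lower and 0.350% higher. By edgeR, 4 members had an unadjusted p under 0.05, all of them lower, against 10.8% of all genes in either direction, and DESeq2 called 0 members as well. These were Ccne1 (log2 fold change -1.26, 95% confidence interval -2.07 to -0.44, adjusted p = 0.163), Ccne2 (-1.18, -2.13 to -0.23, adjusted p = 0.306), Ccnd2 (-1.16, -2.03 to -0.30, adjusted p = 0.252) and E2f8. The plot of fold changes with their intervals shows how wide these estimates were. 4OHT against 4OHT+Fer1 also called 0 members by edgeR and by DESeq2, with background shares of 0.731% lower and 0.296% higher, and the same 4 members were lower at an unadjusted p under 0.05, against 11.8% of all genes.

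**Figure D2:**
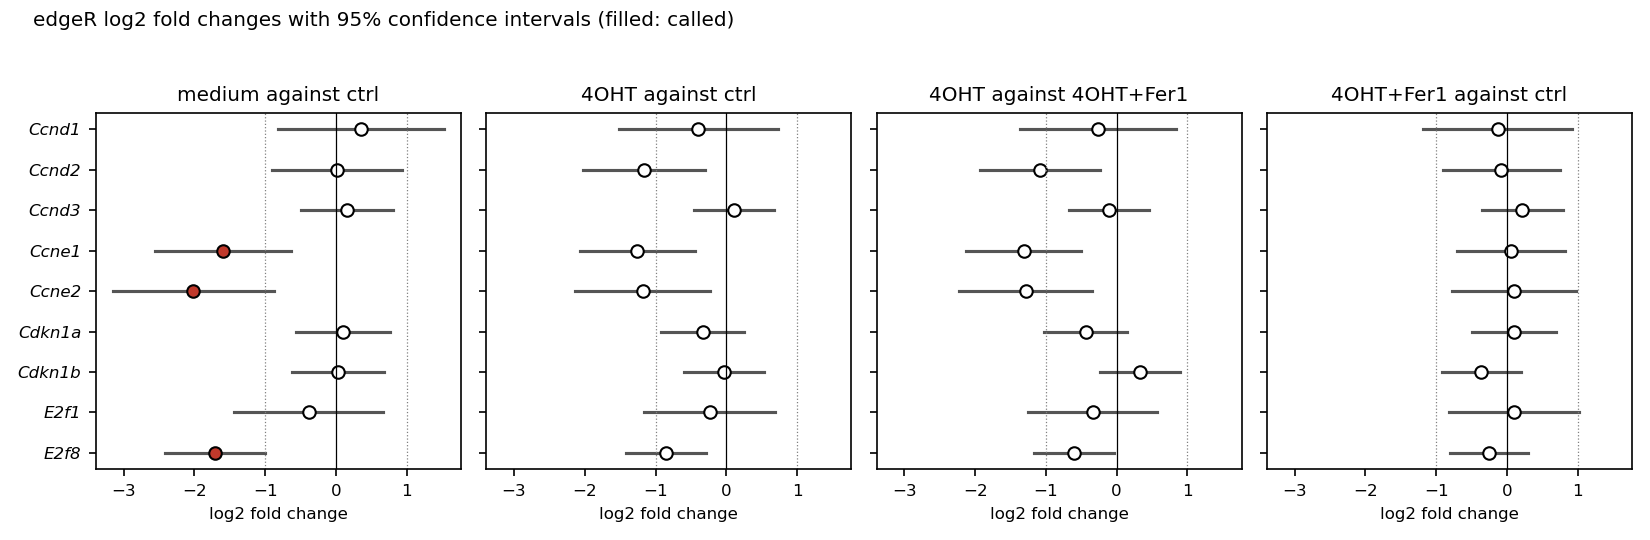
edgeR log2 fold changes (x axis) with 95% confidence intervals for the 9 tested members in 4 comparisons, filled where called, with dotted lines at -1 and 1. Filled points are E2f8, Ccne1 and Ccne2 in medium against ctrl, and values of 4OHT+Fer1 against ctrl lie between -0.36 and 0.22.

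Ccnd1 (ENSMUSG00000070348, chr7:144929931-144939925, minus strand) had 139, 298 and 40.6 CPM in ctrl, 123, 260 and 53.6 CPM in Fer1, 129, 234 and 48.9 CPM in 4OHT+Fer1, 61.9, 75.6 and 109 CPM in 4OHT, and 200 and 223 CPM in medium. In replicates 1 and 2 the ferroptotic samples were lowest of all groups, and in replicate 3 the ferroptotic sample was highest. The log2 differences of 4OHT from ctrl within replicates were -1.17, -1.97 and 1.42, and the fitted value was -0.39 ± 0.52 (SE, adjusted p = 0.871). Without replicate 3 it was -1.59 (adjusted p = 0.0139), and without replicate 1 or 2 it was 0.016 and 0.30.

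Ccnd2 (ENSMUSG00000000184, chr6:127125162-127152193, minus strand), the other M-CSF-responsive D-type cyclin, had 220, 259 and 25.6 CPM in ctrl, 202, 221 and 59.5 CPM in Fer1, 163, 197 and 52.0 CPM in 4OHT+Fer1, 70.7, 53.9 and 39.1 CPM in 4OHT, and 237 and 149 CPM in medium. Again the ferroptotic samples of replicates 1 and 2 lay below all other samples with those numbers, while in replicate 3 all supernatant groups were low. Within replicates 4OHT differed from ctrl by -1.63, -2.26 and 0.61 and from 4OHT+Fer1 by -1.20, -1.87 and -0.41 in log2 CPM. Without replicate 3 the log2 fold change against ctrl was -1.96 (adjusted p = 0.00441), without replicate 1 it was -0.88 (adjusted p = 0.773) and without replicate 2 it was -0.59 (adjusted p = 0.921).

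Ccnd3 (ENSMUSG00000034165, chr17:47505051-47599691, plus strand) did not share this pattern. It lay between 44.4 and 97.3 CPM in all 14 samples, with group means from 66.4 CPM in ctrl to 78.7 CPM in 4OHT+Fer1, and its log2 fold change for 4OHT against ctrl was 0.11 (95% confidence interval -0.46 to 0.68).

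For the E-type cyclins the ranges of the ferroptotic samples and of fresh medium overlapped. Ccne1 had 1.37, 2.72 and 2.02 CPM in 4OHT, 4.18, 6.48 and 4.40 CPM in 4OHT+Fer1 and 4.07, 4.69 and 3.30 CPM in Fer1, so that every 4OHT sample lay below every sample with Ferrostatin-1. Ccne2 had 3.06, 4.26 and 11.6 CPM in 4OHT, 12.8, 20.8 and 12.3 CPM in 4OHT+Fer1 and 8.03, 17.1 and 10.1 CPM in Fer1, and the 4OHT sample of replicate 3 stood close to those of the other supernatants. Within replicates, Ccne1 of 4OHT differed from ctrl by -1.92, -1.40 and 0.10, and Ccne2 by -2.01, -2.27 and 0.44. Against 4OHT+Fer1 the differences were -1.47, -1.19 and -1.04 for Ccne1, lower in 3 of 3, and -1.99, -2.23 and -0.08 for Ccne2. The fitted values against 4OHT+Fer1 were -1.31 for Ccne1 (adjusted p = 0.143), -1.28 for Ccne2 (adjusted p = 0.23), -1.09 for Ccnd2 (adjusted p = 0.264) and -0.26 for Ccnd1 (adjusted p = 0.917).

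**Figure D3:**
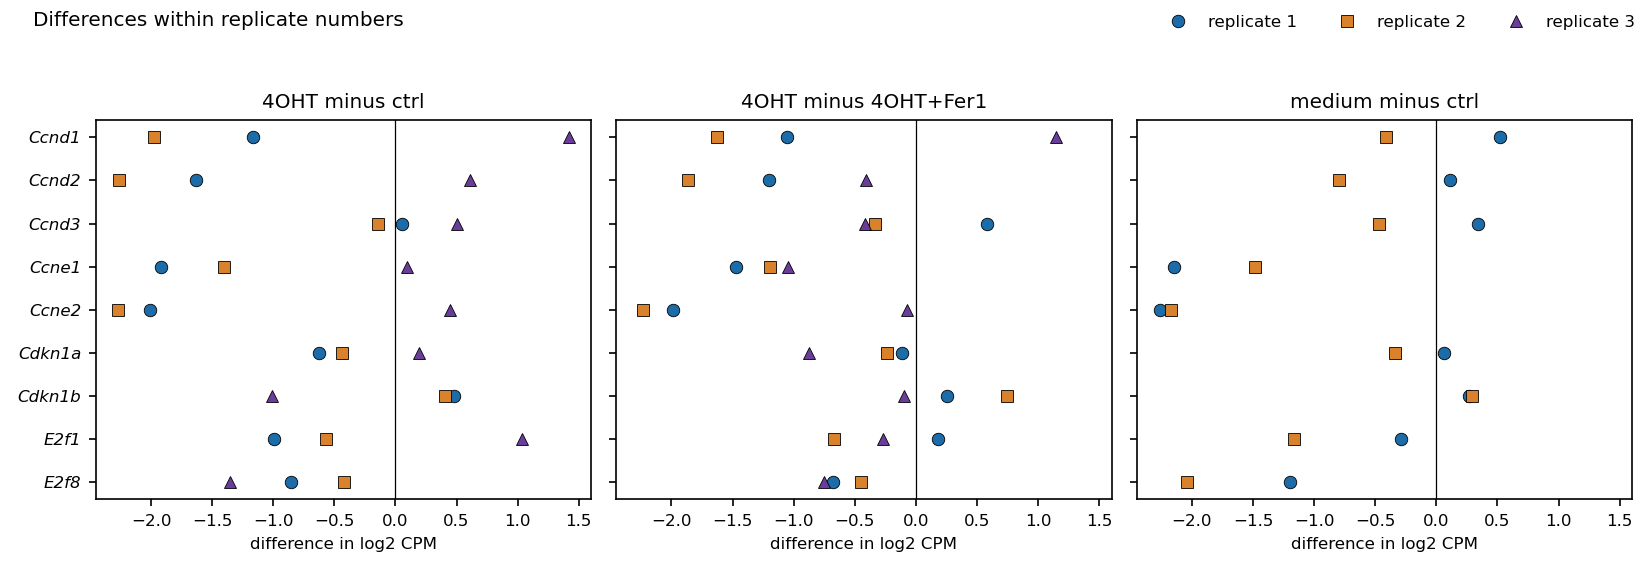
Differences in log2 CPM between samples with the same replicate number (x axis) for the 9 tested members, in 3 comparisons, with 1 symbol per replicate number. For 4OHT minus ctrl, replicates 1 and 2 lie below 0 for Ccnd1, Ccnd2, Ccne1, Ccne2, Cdkn1a and E2f1 while replicate 3 lies above 0, and for E2f8 all 3 lie below 0.

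Left without replicate 3, edgeR called 4 members lower in 4OHT than in ctrl, namely Ccnd1, Ccnd2, Ccne1 (-1.74, adjusted p = 0.0343) and Ccne2 (-2.22, adjusted p = 0.00288), where 0.775% of all tested genes were called lower. Against 4OHT+Fer1 it called 3 lower, namely Ccnd1 (-1.32, adjusted p = 0.0268), Ccnd2 (-1.52, adjusted p = 0.0144) and Ccne2 (-2.16, adjusted p = 0.00338), where 0.679% of all genes were called lower. These fits rest on 2 samples per group. Replicate 3 was singled out by the levels of Ccnd1 and Ccnd2 themselves, so their calls without it are not independent support. With all replicates the calls of members were 0 in each of these comparisons, and without replicate 1 or 2 they were 0 too. Over all genes, the fits without replicate 1 or 2 gave 2 and 0 calls against ctrl, and 0 and 0 against 4OHT+Fer1. Calls in those fits therefore cannot set the members apart from other genes. Values against ctrl in those fits were -0.86 and -1.09 for Ccne1 and -0.78 and -0.67 for Ccne2.

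The effect of 4OHT without Ferrostatin-1 was also compared with its effect in the presence of Ferrostatin-1, as a difference of differences called at an adjusted p under 0.05. The share of all genes called was 0.0311%. No member was called, and the largest differences were -1.59 for Ccne2 (unadjusted p = 0.0206, adjusted p = 0.663 from edgeR) and -1.56 for Ccne1 (unadjusted p = 0.0101, adjusted p = 0.536). By 4OHT+Fer1 against ctrl, where 0.0311% of genes were called in either direction, members ranged from -0.36 to 0.22 with 0 called and 0 at an unadjusted p under 0.05. By Fer1 against ctrl, where 0% of genes were called, they ranged from -0.31 to 0.22, likewise with 0 called and 0 at an unadjusted p under 0.05. DESeq2 called 0 members in these 3 comparisons.

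Values for ferroptotic supernatant against fresh medium were negative for Ccnd1 and Ccnd2 and positive for E2f8. No member was called in 4OHT against medium, where 1.64% of all genes were called lower and 1.42% higher, and 2 members had an unadjusted p under 0.05 by edgeR, against 15.8% of all genes. These were Ccnd2 (log2 fold change -1.18, adjusted p = 0.199) and E2f8 (0.85, adjusted p = 0.193). Ccnd1 (-0.75, adjusted p = 0.651) and Ccnd2 lay below both medium samples in all 3 ferroptotic samples. So did Cdkn1a (-0.44, adjusted p = 0.582), while E2f8 and the untested Myc lay above both. For these and the other separations of groups given in the text, the share over all genes was not computed. Without replicate 3, Ccnd1 (-1.64, adjusted p = 0.00353) and Ccnd2 (-1.64, adjusted p = 0.00309) were called lower, where 1.73% of all genes were. Values for the E-type cyclins were 0.34 for Ccne1 (95% confidence interval -0.67 to 1.35) and 0.83 for Ccne2 (-0.37 to 2.03).

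Neither CDK inhibitor was called in any comparison. Cdkn1a (ENSMUSG00000023067, chr17:29090976-29100727, plus strand) was the most abundant member by 3′ counts, with 451, 585 and 226 CPM in ctrl, 515, 414 and 466 CPM in Fer1, 316, 510 and 476 CPM in 4OHT+Fer1, 292, 433 and 259 CPM in 4OHT, and 471 and 462 CPM in medium. Its log2 fold change was -0.33 for 4OHT against ctrl (95% confidence interval -0.92 to 0.25, adjusted p = 0.763) and 0.10 for medium against ctrl (-0.56 to 0.76). Cdkn1b (ENSMUSG00000003031, chr6:134920401-134925513, plus strand) had 62.4, 56.6 and 140 CPM in ctrl and 87.0, 75.0 and 69.5 CPM in 4OHT. The ctrl sample of replicate 3, which had the lowest Ccnd1 and Ccnd2 of all samples, had the highest Cdkn1b. Its log2 fold change was -0.028 for 4OHT against ctrl (-0.59 to 0.54), which became 0.43 without replicate 3 (adjusted p = 0.38), and 0.034 for medium against ctrl (-0.62 to 0.68).

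E2f1 (ENSMUSG00000027490, chr2:154559407-154569892, minus strand) varied more between replicates than between groups. It had 22.9, 33.5 and 14.2 CPM in ctrl, 23.7, 19.2 and 25.1 CPM in Fer1, 10.0, 35.9 and 35.4 CPM in 4OHT+Fer1, 11.4, 22.5 and 29.4 CPM in 4OHT, and 18.7 and 14.8 CPM in medium, and all neighbouring groups overlapped in the order of their means. Its log2 fold change was -0.24 for 4OHT against ctrl (95% confidence interval -1.16 to 0.69) and -0.38 for medium against ctrl (-1.44 to 0.67). E2f8 differed from E2f1 in that its medium and ferroptotic samples lay below all ctrl samples.

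Myc (ENSMUSG00000022346, chr15:61985391-61990374, plus strand) was close to the counting limit and was not tested. It had 75 counts over all 14 samples, with 4, 8 and 11 counts in ctrl, 5, 9 and 0 in Fer1, 9, 3 and 2 in 4OHT+Fer1, 5, 10 and 4 in 4OHT, and 2 and 3 in medium. Group means lay between 0.294 and 0.808 CPM, and from high to low the order was ctrl, 4OHT, 4OHT+Fer1, Fer1 and medium, with overlap between all neighbours. Both medium samples, at 2 and 3 counts, lay below all ctrl and all 4OHT samples, which had at least 4 counts. As these values are at the limit of 3 counts, no group difference is drawn from them.

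Other genes of the pathway were read from 4 lists, written with earlier results of these data known, so their calls are not independent support. The E2F target list, 32 genes of DNA replication and nucleotide supply that were all tested, was lower in fresh medium and in ferroptotic supernatant than in ctrl. In medium against ctrl 21 of 32 were called lower and 0 higher, against 4.10% and 3.69% of all tested genes. The median log2 fold change was -1.65 against 0.0084 over all genes. Among the genes that fell were Ccna2, the S-phase cyclin A2 (-4.43), and Rrm2, a subunit of ribonucleotide reductase (-2.96). In 4OHT against ctrl 12 of 32 were called lower and 0 higher, against 0.763% and 0.350% of all tested genes. The list median was -0.98 against 0.0059 over all genes. Among the called genes were Rrm2 (-1.83) and the replication checkpoint adaptor Clspn (-1.57). In 4OHT against 4OHT+Fer1 11 were called lower, against 0.731% of all tested genes. They were led by Clspn (-1.60), Rrm2 (-1.41) and Dtl (-1.38), which targets replication licensing factors for degradation. In 4OHT against medium 6 were called higher and 0 lower, against 1.42% and 1.64% of all tested genes. Among the 6 were Ccna2 (2.98) and Cdc45 (2.03).

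Against ctrl, the E2F targets were lower in 4OHT in every replicate number, replicate 3 included. In replicate 3 the D-type and E-type cyclins were not lower against ctrl. The median difference in log2 CPM of 4OHT from ctrl over the list was -0.995, -1.09 and -1.04 in replicates 1, 2 and 3, with 30, 31 and 30 of the 32 genes below 0. In replicate 3 Ccnd1, Ccnd2, Ccnd3, Ccne1, Ccne2, Cdkn1a and E2f1 were above 0, and Cdkn1b and E2f8 were below 0. Without replicate 3 the list had 12 calls in 4OHT against ctrl, where 191 of all 12516 tested genes were called. Without the replicate block it had 1 call, where 6 of all 12851 tested genes were called. In a fit of only the ctrl and 4OHT samples, or without replicate 1 or 2, it had 0 calls. Over all genes these latter fits called 0 of 11857, 2 of 13239 and 0 of 13231. Of the list, 22, 21 and 17 genes had an unadjusted p under 0.05, with medians of -0.96, -1.07 and -0.97. Over all genes 835, 965 and 726 had such a p. Against 4OHT+Fer1 the list had 2 calls without the block, 2 in a fit of only those groups, 7 without replicate 3 and 0 without replicate 1 or 2. Over all genes those fits called 18, 37, 217, 0 and 0. In medium against ctrl the list had 18 calls without the block, where 457 of all 12851 genes were called. Without replicate 1 or 2, which leaves 1 medium sample, its median was -1.76 and -1.47. In the difference of differences 1 gene of the list was called, Clspn (-1.70, adjusted p = 0.00939), which had between 38.5 and 49.4 CPM in ctrl, 39.9 and 44.7 CPM in 4OHT+Fer1, 12.9 and 16.3 CPM in 4OHT, and 5.59 and 7.45 CPM in medium.

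**Figure D4:**
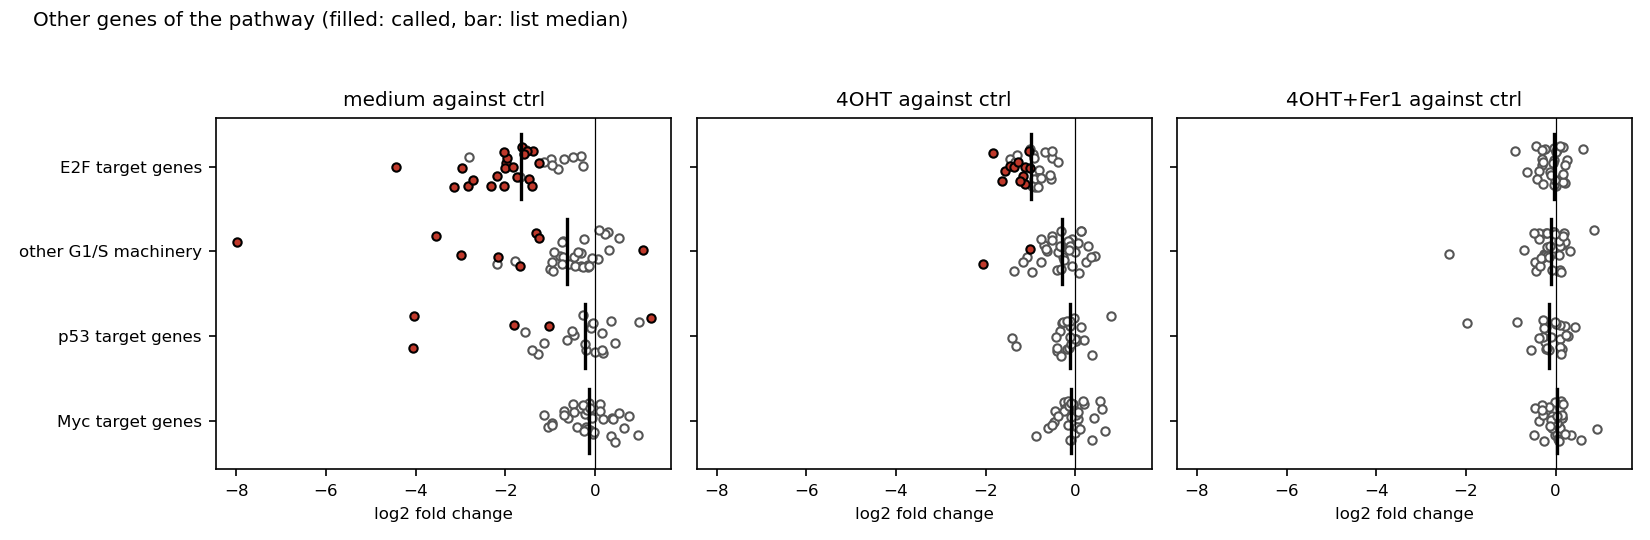
edgeR log2 fold changes (x axis) of the tested genes of 4 lists in 3 comparisons, each point 1 gene, filled where called, with a bar at the list's median and points spread vertically only for legibility. The E2F target list has medians of -1.65 in medium against ctrl, -0.98 in 4OHT against ctrl and -0.028 in 4OHT+Fer1 against ctrl, and the point near -8 is Mxd3, a fitted value for a gene with 0 counts in medium.

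Of 41 other genes of the G1/S machinery, 38 were tested. In 4OHT against ctrl 2 were called lower and 0 higher, where 0.763% of all tested genes were called lower. They were Mxd3 (-2.06), a MAX partner, and Rbl1 (-1.001), the retinoblastoma relative p107. The list median was -0.29. In medium against ctrl 7 were called lower and 1 higher, with a median of -0.62. Of all tested genes 4.10% were called lower and 3.69% higher, so the single call higher is near the share over all genes. E2f7, the closest relative of E2f8 and likewise a repressor, had between 5.77 and 8.44 CPM in ctrl and 0.445 and 0.762 CPM in medium (log2 fold change -3.54), and Cks1b, a CDK-binding subunit, also fell (-2.98). Mxd3 had between 2.74 and 4.83 CPM in ctrl and 0 counts in both medium samples, where 3 counts would be at most 0.381 CPM. The gene that rose was Mxd1 (1.07), another MAX partner that opposes MYC. In 4OHT against medium 3 were called higher, namely Mxd3, E2f7 (2.16) and Cks1b (1.90), where 1.42% of all tested genes were. In 4OHT against 4OHT+Fer1 0 were called.

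The lists for p53 and Myc targets had fewer calls. Of 27 p53 targets 25 were tested, with 0 called in 4OHT against ctrl (median -0.11) and 0 against 4OHT+Fer1 (median -0.0032), and Cdkn1a, itself a p53 target, was not called either. In medium against ctrl 4 were called lower and 1 higher, against 4.10% and 3.69% of all tested genes. The single call higher is thus near the share over all genes. The largest falls were those of Gtse1 (-4.06 ± 1.20 SE, edgeR adjusted p = 0.0494) and Ckap2 (-4.03), which encode proteins of G2 and mitosis, and of the stress cytokine Gdf15 (-1.80). Gtse1 had between 2.23 and 14.4 CPM in ctrl and 0.381 and 0.556 CPM in medium, close to the limit of 3 counts. The kinase gene Plk2 rose (1.25). In 4OHT against medium Gdf15 was called higher (1.48) and Pmaip1, a pro-apoptotic BCL2 family gene, lower (-1.27). Of all tested genes 1.42% were called higher and 1.64% lower there. All 35 Myc targets were tested and 0 were called in any comparison, with medians of -0.084 in 4OHT against ctrl and -0.13 in medium against ctrl. Within replicates, the Myc target median of 4OHT minus ctrl was -0.41 and -0.35 in replicates 1 and 2 and 0.68 in replicate 3, the same split by replicate as for Ccnd1 and Ccnd2.

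The genes with the pattern most like that of a called member were found by the root mean square difference of centred log2 CPM over the 14 samples. For Ccne1 these were Lig1 (0.258), Syce2 (0.295) and Mcm5 (0.340), against a median of 0.813 over all tested genes. For Ccne2 they were Lrp8 (0.349), Lig1 (0.406) and Mcm5 (0.420), against a median of 0.981. For E2f8 they were Ulbp1 (0.253), Hmgn2 (0.259) and Wdr90 (0.267), against a median of 0.729. Lig1 and Mcm5, a DNA ligase and a subunit of the replicative helicase, are also on the E2F target list. Among the members themselves, Ccne1 and Ccne2 were 0.485 apart, E2f8 was 0.645 from Ccne1 and 0.695 from Ccne2, and E2f1 was 0.661 from Ccne1, 0.798 from Ccne2 and 0.682 from E2f8. All of these distances share the same libraries.

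Several members overlap a gene on the opposite strand, and whether counting used strand was not given in the sources used here. Ints8, which had 920 counts in all, overlaps Ccne2 (1421 counts), Gm2788 (244 counts) overlaps E2f8 (1923 counts), Bysl (1480 counts) overlaps Ccnd3 (9610 counts) and LTO1 (1597 counts) overlaps Ccnd1 (18693 counts). No other gene overlaps Ccne1, Cdkn1b, E2f1 or Myc in the GENCODE M21 annotation.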

How the data were processed

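3′ RNA-seq (QuantSeq) was done on 14 samples of pBMDMs. The authors made the deposited estimated counts per gene with STAR 2.7.10a and Salmon 1.5.2 and did not normalize these expected counts. The submitters' processing notes name the builds GRCh38 and GRCm38, the methods of the paper name only the human genome, and the identifiers are those of mouse genes. Coordinates are those of GENCODE M21 on GRCm38, and promoter sequences those of RefSeq. The authors' table of DESeq2 1.36.0 comparisons, which holds their fold changes and p-values, and its 14 columns of per-sample CPM were not used.

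Expected counts were rounded to whole numbers (30109 values were not whole) and scaled by TMM. Tests used the quasi-likelihood functions of edgeR 4.0.16 in R 4.3.3, with p adjusted over all genes by Benjamini-Hochberg. All 14 samples entered 1 model of group and replicate number, because mouse ID was a term of the study's own design. It was assumed that the number stands for the mouse, and where it does not, p-values measure only the spread between these samples. Deviations from group means of same-numbered samples correlated with a median r of 0.25 (0.00 to 0.65, 26 pairs), against -0.14 for other pairs. Deviations sum to 0 within each small group, which by itself pushes the other pairs below 0. The value for other pairs is therefore not an independent comparison. Genes were kept by filterByExpr with a minimum count of 10. For log2 CPM a prior count of 2 was added. Count limits cover counting error only.

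The members and the gene lists were chosen with earlier results of these data known. Named are all members, up to 3 called genes per list, comparison and direction with the largest change, and the 3 genes most similar to each called member. Values of some genes that this rule names are not reported here. The fit was tested on simulated data. Alternatives were DESeq2 1.42.0, no replicate block, only the groups compared, RLE size factors, no filter, a filter of 1 CPM in 3 samples, no fold threshold and each replicate left out in turn. The alternatives for the E2F target list were added after the data had been seen.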

Additional observations from a re-analysis of the deposited data

How the results depend on the processing

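The number of members called in 4OHT against ctrl was 0, and it was 1 (Ccnd2, adjusted p = 0.0495) with no filter on low counts and between 0 and 4 with a replicate left out. In 4OHT against 4OHT+Fer1 it was 0 and between 0 and 3 with a replicate left out, and in the difference of 4OHT effects 0 and between 0 and 1, the 1 being Ccne2 without replicate 3 (-2.66, adjusted p = 0.0218). In 4OHT against medium it was 0, 2 (Ccnd1 and Ccnd2) in a fit of only the groups compared and between 0 and 2 with a replicate left out. In medium against ctrl it was 3, 1 (E2f8) without the replicate block and between 0 and 3 with a replicate left out. The block changed no other count of called members. Under DESeq2, RLE size factors and the stricter filter these counts were the same, and so were they with no fold threshold in the comparisons that have one. The counts for 4OHT+Fer1 and Fer1 against ctrl were 0 under every alternative run.

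Of 30 fold changes of single members, 22 of 270 recomputed values reversed, none of them of a called member. With a replicate left out in turn, values whose sign changed ran from -1.59 to 0.30 for Ccnd1, from -0.055 to 0.25 for Ccnd3, from -0.28 to 0.43 for Cdkn1b and from -0.78 to 0.13 for E2f1 in 4OHT against ctrl. They ran from -1.32 to 0.27 for Ccnd1 in 4OHT against 4OHT+Fer1 and from -1.64 to 0.013 for Ccnd1 in 4OHT against medium. In medium against ctrl they ran from -0.33 to 0.59 for Ccnd2, from -0.21 to 0.63 for Ccnd3, from -0.14 to 0.40 for Cdkn1a, from -0.14 to 0.27 for Cdkn1b and from -0.74 to 0.22 for E2f1. In that comparison a fit of only its groups gave -0.37 for Ccnd2, -0.092 for Ccnd3 and -0.17 for Cdkn1a, no filter gave -0.030 for Ccnd2 and -0.0061 for Cdkn1b, and no replicate block gave -0.26 for Cdkn1b. The cause was not tested.

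Levels of 1.14 to 7.54 CPM limit the precision for Ccne1, and Myc could not be compared.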
